A study of Mus musculus with 38 samples.

Results

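Collagen genes were read from arrays of GFP+ cells sorted from the MMTV-PyMT mouse model of breast cancer. The set held every gene whose name on the arrays consists of Col, a type number, the letter a and a chain number, with nothing after it, a rule on names that uses no measured value. It came to 40 genes of the 28786 gene names on the arrays, carried by 78 probes. By the structure of the protein they fall into 11 fibrillar, 6 basement membrane, 9 FACIT, 4 beaded filament, 2 multiplexin and 4 transmembrane collagens, and 4 collagens of networks and anchoring fibrils.

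Collagens are triple helices of alpha chains that form most of the extracellular matrix. Fibrillar collagens (types I, II, III, V and XI among them) build the banded fibrils of connective tissue and are made in bulk by fibroblasts. Type IV collagen forms the sheet of the basement membrane, on which mammary epithelium rests and which carcinoma cells cross when they invade. FACITs (fibril-associated collagens with interrupted triple helices) decorate the surface of fibrils, type VI forms beaded microfibrils, multiplexins (types XV and XVIII) lie in the basement membrane zone, type XVII spans the membrane in hemidesmosomes, and type VII forms the anchoring fibrils that tie epithelial basement membrane to the stroma beneath.

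The study followed tumor cells through progression and through chemotherapy, on 38 two-color arrays in 2 experiments. In both, hyperplasias of MMTV-PyMT;actin-GFP females, which express polyoma middle T under the MMTV promoter and GFP under the actin promoter, were transplanted into cleared mammary fat pads of FVB/n mice of weaning age, and GFP+ cells were sorted from the outgrowths or from the lungs. The progression experiment comprised 5 samples of 5-week outgrowths (adenoma), 6 of 18-week outgrowths (carcinoma), 6 of disseminated cells from the lungs of mice with 18-week tumors and 5 of lung metastases taken after the primary tumor had been removed. The chemotherapy experiment comprised early carcinomas left untreated (6 samples, labeled Control), residual tumors 10 days after 1 dose of TAC (docetaxel, doxorubicin and cyclophosphamide; 6 samples, labeled Regressed) and relapsed tumors, harvested 10 days after dose 4 (4 samples). The relapsed group is the one labeled Resistant, a reading made here because the methods name no other treated group. Since actin-GFP marks all cells of the donor tissue, the sort selects donor cells and not epithelium, and each sample of disseminated cells pools several mice. The labels do not say that the other samples came from separate animals, so the p-values measure only the spread between these samples. In such bulk RNA, fewer cells of a type and less RNA per cell cannot be told apart.

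Each array held the sample in Cy5 and a Universal mouse reference RNA in Cy3, and a level is given as the log2 ratio of sample to reference. A ratio of 0 means a signal equal to the reference's, and since the reference holds each transcript in its own amount, levels of different genes cannot be ranked. Between 48.4% and 78.9% of spots were well above background on the progression arrays and between 50.5% and 64.3% on the chemotherapy arrays, and the number of arrays limits the precision. Carcinoma 6 and disseminated 6 stood apart from the other arrays of their groups, with a median correlation across genes of 0.760 and 0.71, as did disseminated 4 and metastases 4 to a lesser degree (both 0.776). Carcinoma 6 also had a mean log2 ratio over 9 macrophage markers of 2.68 where the other 5 carcinomas lay between -0.91 and -0.29. Metastases 4 had a macrophage mean of 4.34, the highest of its group, and a luminal epithelial mean of -0.63, the lowest. Luminal epithelial markers were present in the primary tumors, with a mean log2 ratio over 8 genes of 2.38 ± 0.31 (SD, n = 5) in adenoma and 2.52 ± 0.57 (n = 6) in carcinoma. In disseminated samples that mean was 0.78 ± 1.34 (n = 6) and ran from -0.84 to 2.61, and the macrophage mean was 3.61 ± 0.66 (n = 6). The cell content of these samples was not tested.

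Transcripts of most collagen genes were measurable in these cells. On the progression arrays the sample channel was well above background on all 22 arrays for 26 of the 40 genes and on some arrays for the others; on the chemotherapy arrays it was so on all 16 for 29, and on none for Col10a1, Col28a1 and Col4a3. Of the 11 fibrillar genes, 6 had a mean over the progression arrays below -2, and the same number on the chemotherapy arrays, beside 12 and 10 of all 40 genes. Means above 2 belonged to 5 genes in progression (the FACITs Col9a1, Col9a2 and Col14a1, the fibrillar Col11a1 and the transmembrane Col17a1). In chemotherapy they belonged to 6, with Col9a3 in place of Col14a1 and the basement membrane chain Col4a6 besides. The plot of group levels shows the same split within the fibrillar class, with the type I chains far below the reference and Col11a1 far above it.

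**Figure D1:**
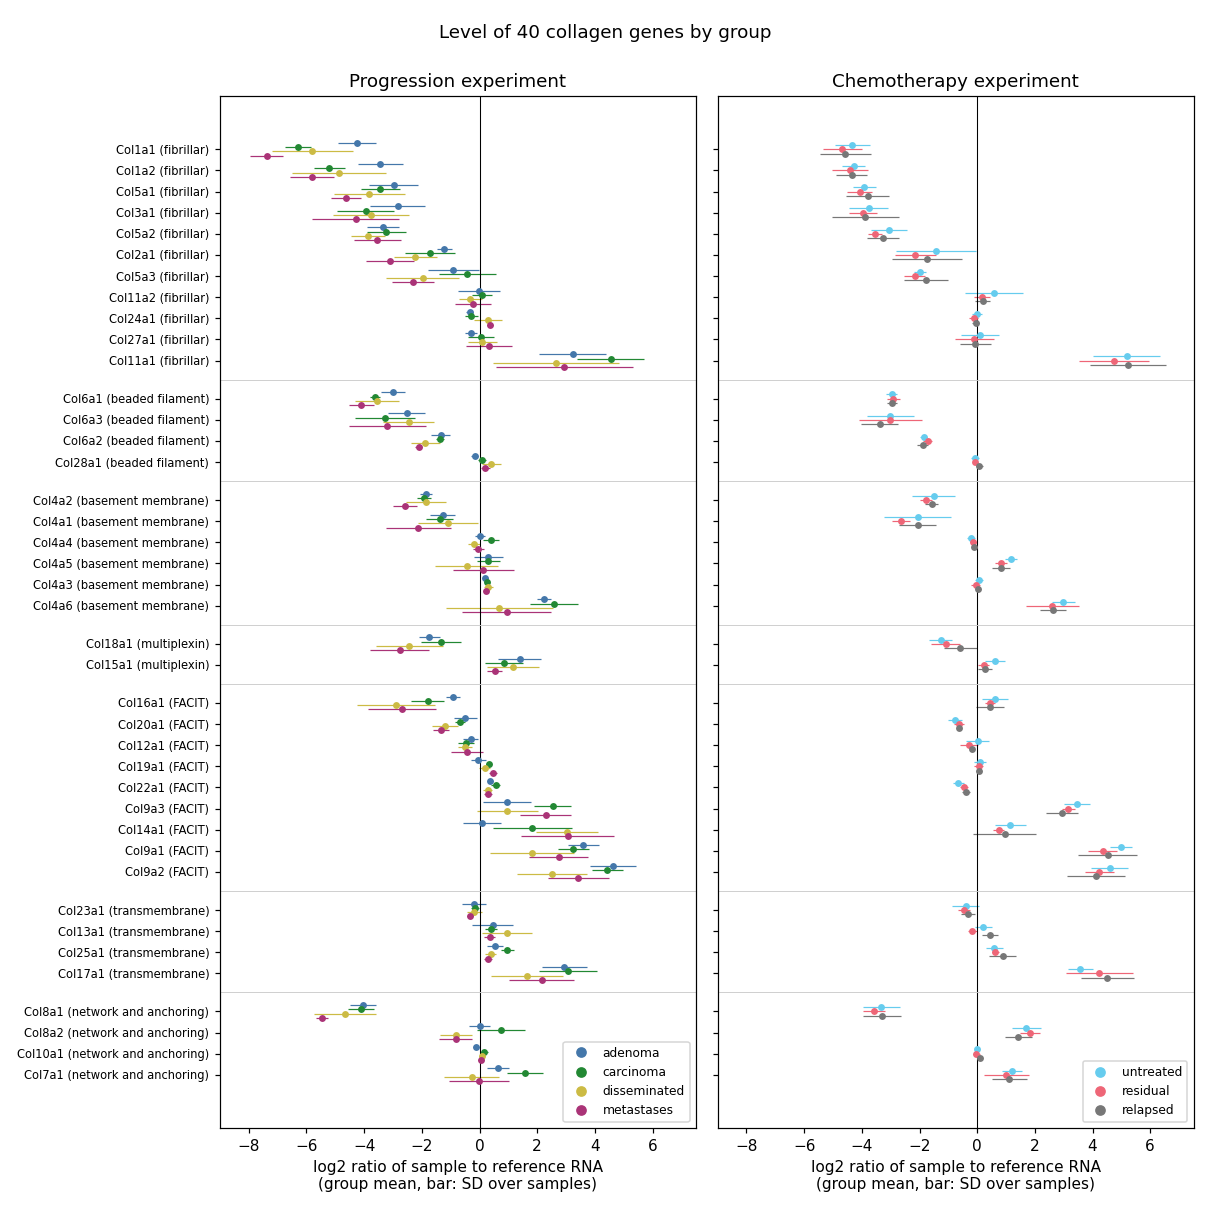
Mean log2 ratio of sample to reference RNA (x axis) of each of the 40 collagen genes (y axis, grouped by class) in the 4 progression groups (left) and the 3 chemotherapy groups (right), with bars of 1 SD over the samples of a group. Col1a1 reached a mean of -7.39 in metastases and -4.24 in adenoma, whereas Col9a2 lay at 4.62 in adenoma and 2.51 in disseminated cells.

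Across progression, collagen genes mostly lay lower in the cells from the lungs than in the primary tumors. For disseminated cells against carcinoma, the share that lay lower (26 of 40) was near that of all genes (60.5%). A gene was called when its adjusted p was below 0.05 in limma, with Benjamini-Hochberg adjustment over all genes, and its log2 change was at least 1. In carcinoma against adenoma, 1 of 40 collagen genes rose and 1 fell, where 1.17% of all genes rose and 2.14% fell. In disseminated cells against adenoma 1 rose and 4 fell (all genes, 4.64% and 5.84%), and in metastases against adenoma 1 rose and 7 fell (all genes, 6.08% and 8.51%). Against carcinoma, 5 fell and 0 rose in disseminated cells (all genes, 5.47% up and 6.12% down) and 6 fell and 0 rose in metastases (all genes, 4.74% up and 5.34% down). Metastases and disseminated cells differed in 1 gene, lower in metastases (all genes, 3.44% up and 3.67% down). The share of collagen genes that rose was under that of all genes in the 5 comparisons with lung samples, and the share that fell was above it in the 4 comparisons of lung samples with primary tumors. These comparisons share groups, so their calls are not independent of one another.

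In all, 15 of the 40 genes were called in at least 1 progression comparison, where 26.8% of all genes were. The median log2 change of the 40 genes was 0.04 in carcinoma against adenoma, -0.53 in disseminated cells against adenoma and -0.71 in metastases against adenoma, while the median of all genes was 0.07, -0.01 and 0.02. Against carcinoma the collagen median was -0.40 in disseminated cells and -0.49 in metastases, beside -0.07 and -0.05 for all genes. These medians depended on the setting. Against adenoma, the one for disseminated cells was -0.34 with median centring, -0.28 with the deposited ratios, -0.25 with a gene's probes averaged and -0.31 without disseminated 3. The one for metastases against adenoma was -0.39 with Aquantile normalization between arrays, -0.41 with the deposited ratios, -0.45 with averaged probes and -0.39 without metastases 4. Against carcinoma, the one for disseminated cells was -0.25 with averaged probes and -0.26 without disseminated 6, and the one for metastases was -0.33 with the deposited ratios. Of the 40 genes, 33 lay lower in metastases than in carcinoma and 32 lower than in adenoma, as did 59.2% and 47.9% of all genes. In disseminated cells 26 lay lower than in carcinoma and 27 lower than in adenoma, beside 60.5% and 51.4% of all genes. For carcinoma against adenoma the count of 2 fell to 1 without any of carcinoma 1 to 5 or adenoma 2, 3 or 4. For disseminated cells it fell from 5 to 3 against adenoma without disseminated 1, 3 or 5 or adenoma 2 or 4, and rose from 5 against carcinoma to 8 without disseminated 4 and 9 without disseminated 6. For metastases it fell from 8 to 5 against adenoma without metastases 3 or adenoma 4 (7 without metastases 4), and from 6 against carcinoma to 3 without carcinoma 2 or metastases 3 and to 2 without metastases 4. The count of 1 for metastases against disseminated cells became 0 without disseminated 2, 3, 4 or 5 or metastases 1, 3 or 5, 2 without metastases 2 and 4 without disseminated 6. Without metastases 4 it stayed at 1, but the gene was Col9a3 (higher) and no longer Col1a1. Without carcinoma 6 it was 2 in carcinoma against adenoma, 7 in disseminated cells and 6 in metastases against carcinoma.

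**Figure D2:**
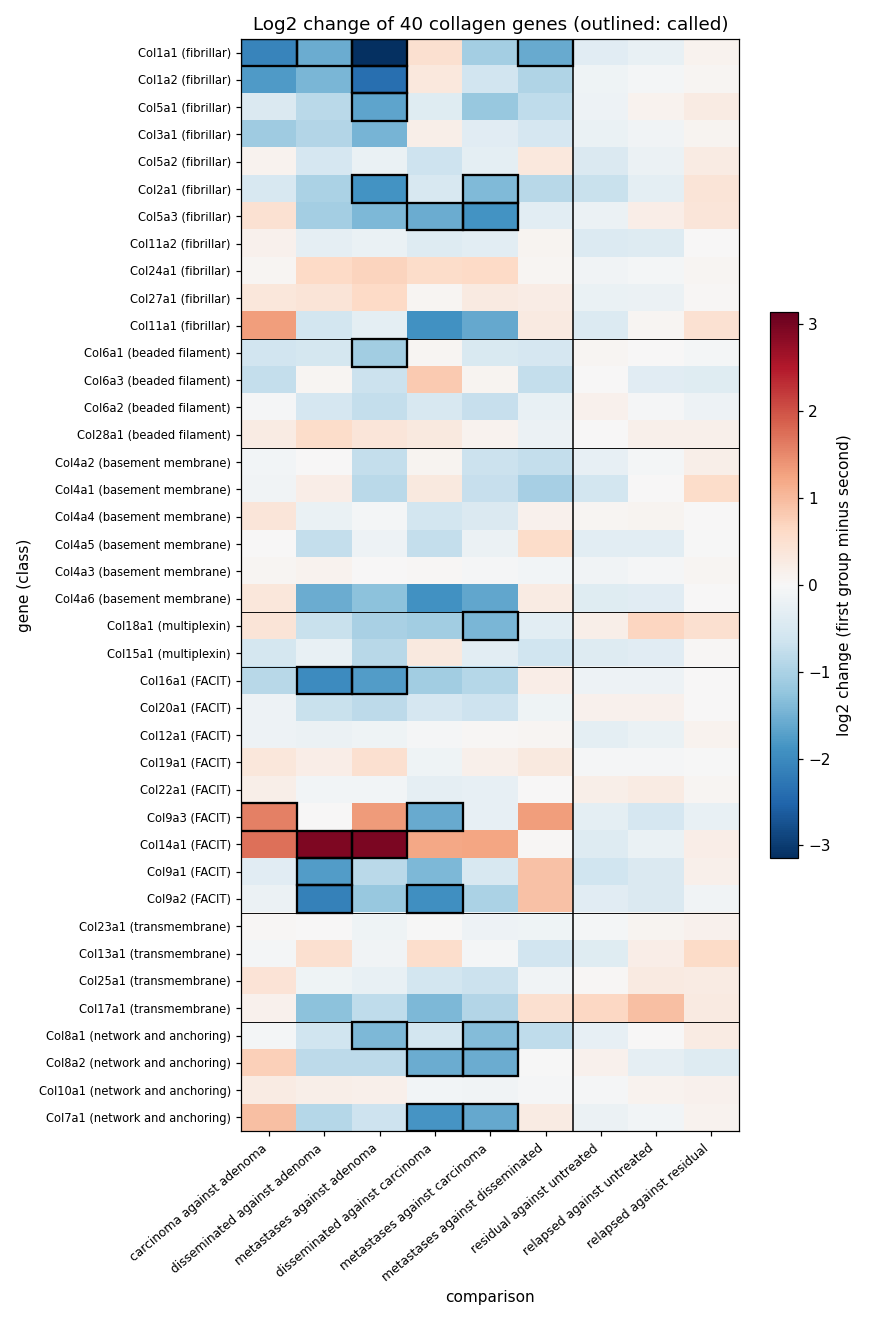
Log2 change of each of the 40 collagen genes (rows, by class) in the 6 progression and 3 chemotherapy comparisons (columns), colored from blue (lower) to red (higher), with called genes outlined. Of the 27 outlined cells, 24 are lower and 3 higher, and none lies in the chemotherapy columns.

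Type I collagen, the main fibrillar collagen of stroma, showed the largest falls, in metastases against adenoma. Col1a1 encodes its alpha 1 chain, and the probe lies at chr11:95060800-95060859 (mm7, plus strand). In the 5 adenomas Col1a1 stood at log2 ratios of -4.48, -4.0, -4.44, -3.27 and -5.01, in the 6 carcinomas between -7.07 and -5.83 (median -6.16), and in the 5 metastases at -7.12, -6.60, -8.03, -7.75 and -7.43. All carcinomas and all metastases lay below the lowest adenoma. Disseminated cells spread from -7.63 to -3.55 (median -6.20), with disseminated 2 above most adenomas. Col1a1 fell by 2.07 on the log2 scale (SE 0.51) in carcinoma against adenoma, 4.19-fold (limma adjusted p = 0.0131), and by 3.14 (SE 0.53) in metastases against adenoma, 8.84-fold (adjusted p = 0.00027). In linear terms the adenoma mean was 0.0529 of the reference, the carcinoma mean 0.0126, the disseminated mean 0.0179 and the metastases mean 0.00598.

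The fall of Col1a1 in disseminated cells against adenoma was smaller, by 1.56 on the log2 scale (SE 0.51, adjusted p = 0.0347), with 4 of 6 disseminated samples below every adenoma. This call was lost without disseminated 1, 3, 5 or 6 or adenoma 2, 3 or 4 (log2 change -1.61 to -1.20, adjusted p up to 0.0945). Within the 3 slides that held both groups the difference was lower in 2 and 0.22 in the other. Col1a1 also fell by 1.58 in metastases against disseminated cells (SE 0.51, adjusted p = 0.0445), a call lost without any of 8 of the 11 samples, namely disseminated 2, 3, 4 or 5 or metastases 1, 3, 4 or 5 (log2 change -1.68 to -1.13, adjusted p up to 0.109). The order of the group means was thus adenoma, disseminated cells, carcinoma and metastases from high to low. Disseminated cells and carcinoma, neighbors in that order, differed by 0.50 (SE 0.48, adjusted p = 0.481), within the spread. The other 2 Col1a1 probes lay lower too in metastases against adenoma, with log2 changes of -2.54 and -1.30. In carcinoma against adenoma they changed by -1.34 and -0.42 and missed the threshold (adjusted p = 0.0976 and 0.214 in limma), and in metastases against disseminated cells by -1.0 and -0.40. With probes averaged, the change in carcinoma against adenoma was -1.27. The call against disseminated cells was also lost with Aquantile (adjusted p = 0.0586), averaged probes (log2 change -0.99), slide as a random block (adjusted p = 0.0551) and an unmoderated equal-variance test (adjusted p = 0.221). The call of disseminated cells against adenoma was lost with the deposited ratios (adjusted p = 0.0603) and with the unmoderated test (adjusted p = 0.183).

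Col1a2, the alpha 2 chain of type I collagen, was called in metastases against adenoma alone. Its levels were -3.57, -3.28, -3.58, -2.29 and -4.46 in adenoma and -5.58, -4.59, -6.52, -6.27 and -6.09 in metastases, so that every metastasis lay below every adenoma. The fall was 2.38 on the log2 scale (SE 0.63, 5.19-fold, adjusted p = 0.00809). Carcinomas lay between -5.97 and -4.42 (median -5.19) and differed from adenoma by -1.78 (SE 0.60, adjusted p = 0.0607), which missed the threshold. Disseminated cells ran from -6.82 to -2.26, the widest range of the groups, and differed from adenoma by -1.43 (adjusted p = 0.0980). Col3a1, the chain of type III collagen that co-assembles with type I, stood at -2.61, -2.14, -3.53, -1.82 and -4.11 in adenoma and at -3.71, -2.03, -5.84, -5.40 and -4.52 in metastases. The groups overlapped, and the difference of -1.46 (SE 0.73, adjusted p = 0.144) was not called. The 250 bases before the RefSeq start of each gene (GRCm38.p6) are shown because both encode stromal fibril chains. Both genes had mean ratios below the reference in either experiment. Capitals mark CCAAT and GGGCGG on either strand (ATTGG and CCGCCC on the other), which do not overlap each other.
Col1a2, chr6:4505368-4505617, plus strand: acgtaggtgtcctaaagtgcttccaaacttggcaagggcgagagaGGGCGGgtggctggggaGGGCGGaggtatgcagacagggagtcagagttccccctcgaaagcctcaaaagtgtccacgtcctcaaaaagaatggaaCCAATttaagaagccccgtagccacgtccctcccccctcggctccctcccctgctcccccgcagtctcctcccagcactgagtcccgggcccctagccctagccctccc
Col3a1, chr1:45311288-45311537, plus strand: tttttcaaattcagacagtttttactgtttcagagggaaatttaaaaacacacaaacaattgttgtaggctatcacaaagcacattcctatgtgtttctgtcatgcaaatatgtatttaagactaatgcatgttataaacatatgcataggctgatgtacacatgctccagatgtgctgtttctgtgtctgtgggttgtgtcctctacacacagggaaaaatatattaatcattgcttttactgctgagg

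The Col1a2 window held 1 CCAAT and 2 GGGCGG, and the Col3a1 window held neither. Of 32851 RefSeq windows of this length, 33.8% held CCAAT and 32.7% held GGGCGG, and of the 35 windows of 32 collagen genes 34.3% (12 windows) and 54.3% (19 windows) did. No window of Col1a1 was used here.

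The remaining fibrillar genes moved less evenly. Col2a1, the type II chain of cartilage fibrils, was at -1.22, -1.02, -1.16, -1.04 and -1.65 in adenoma and at -3.40, -1.88, -3.20, -4.15 and -2.87 in metastases, without overlap, and fell by 1.88 on the log2 scale (SE 0.44, adjusted p = 0.00357). A second Col2a1 probe that overlaps the first by most of its length went the other way, by 0.50, so the call rests on 1 of the probes. With a gene's probes averaged, the Col2a1 change was -0.50. Col2a1 also fell in metastases against carcinoma, by 1.38 (SE 0.42, adjusted p = 0.0238), a call lost without carcinoma 1 or 2 or metastases 1, 3 or 4 (adjusted p up to 0.0744) and with the unmoderated test (adjusted p = 0.0784). There the other 2 probes changed by -0.18 and -0.04, and with probes averaged the change was -0.53. Col5a1, a type V chain that limits fibril diameter, fell by 1.66 in metastases against adenoma (SE 0.53, adjusted p = 0.0247), while its other probe differed by 0.36 in the opposite direction. This call was lost with probes averaged (-0.65), with the deposited ratios (adjusted p = 0.0730) and without metastases 3 or 4 or adenoma 2 or 4 (adjusted p up to 0.0770). The lower Col1a2 signal was likewise seen with 1 probe, since the other differed by 0.01 and was above background on 0 of 10 arrays, and with both averaged the Col1a2 change was -1.18.

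Col5a3, a further type V chain, fell in the lung samples against carcinoma. Carcinomas lay between -2.08 and 0.93 (median -0.36), disseminated cells between -2.94 and 0.56 (median -2.38), and metastases at -2.06, -2.04, -2.93, -3.17 and -1.37. Below the lowest carcinoma lay 5 of 6 disseminated samples and 2 of 5 metastases, and disseminated 2 was at 0.56. The fall was 1.55 on the log2 scale in disseminated cells (SE 0.55, adjusted p = 0.0436) and 1.89 in metastases (SE 0.58, adjusted p = 0.0244). The former was lost when any of 10 of the 12 samples was left out (all but carcinoma 5 and disseminated 2; log2 change -1.60 to -1.28, adjusted p up to 0.0900) and the latter without carcinoma 2 or metastases 3 or 4 (adjusted p up to 0.0663). The call in disseminated cells was also lost in 5 of 10 other settings: Aquantile (adjusted p = 0.0692), the deposited ratios (0.0629), slide as a random block (0.0556), the unmoderated test (0.118) and averaged probes (log2 change -0.81). A second Col5a3 probe changed by -0.07 and -0.27 in these comparisons, and with both averaged the change in metastases was -1.08. Col5a2, by contrast, had group means between -3.87 and -3.23 and a difference of -0.20 in metastases against adenoma (adjusted p = 0.755).

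**Figure D3:**
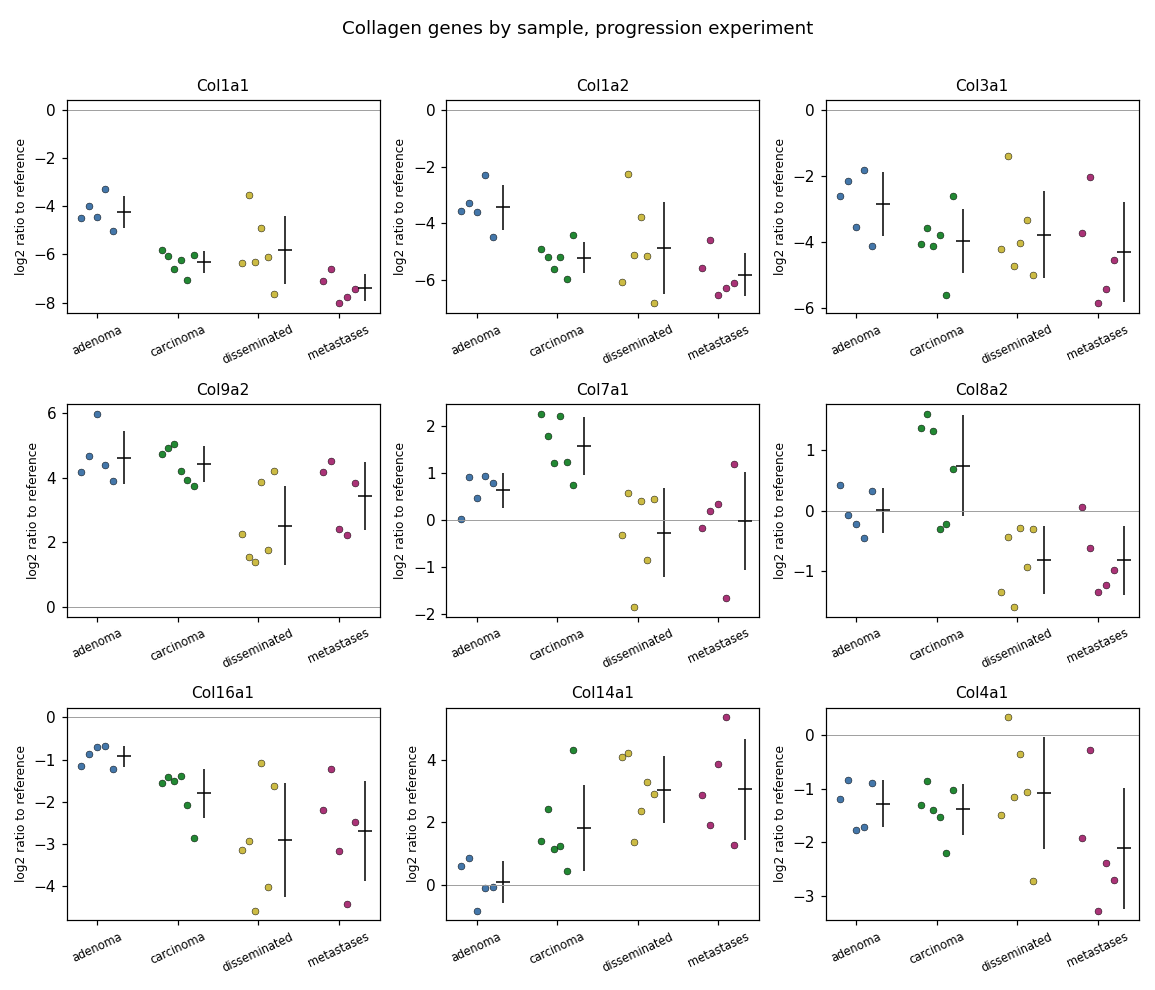
Log2 ratio of sample to reference RNA (y axis) for each sample of the 4 progression groups (x axis) in 9 collagen genes, with the group mean and 1 SD drawn at the right of each group. Col1a1 in the 5 metastases lay between -8.03 and -6.60, below all 5 adenomas, while Col14a1 in all disseminated cells lay above the highest adenoma at 0.86.

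Among basement membrane collagens, 0 of 6 genes were called in any progression comparison (all genes, 26.8%), by limma or by the unmoderated test at the same thresholds. Some were called in other settings. Col4a6 was called in disseminated cells against carcinoma without disseminated 4, disseminated 6 or carcinoma 6 and with only probes well above background tested, and against adenoma without disseminated 4. Col4a5 was called in disseminated cells against carcinoma without disseminated 6. Col4a1 was called in metastases against disseminated cells without disseminated 6 or metastases 2, and against adenoma without metastases 2. At most 3 of 6 had an unadjusted p below 0.05 (metastases against carcinoma, all lower), where 33.9% of all genes did. In disseminated cells against carcinoma the lowest limma adjusted p of the class was 0.00229, also the lowest of the 40 collagen genes. That gene lay lower, by less than the log2 change of a call. Col4a1 and Col4a2 encode the chains of the most widespread type IV collagen, and their RefSeq starts lie 21 bases apart on opposite strands of chromosome 8. Col4a1 stood at -1.18, -0.83, -1.77, -1.71 and -0.89 in adenoma, at -1.93, -0.29, -3.27, -2.39 and -2.70 in metastases and between -2.73 and 0.33 in disseminated cells. Adenomas were tightly grouped and the lung samples spread to both sides of them, and metastases against adenoma differed by -0.84 (SE 0.50, adjusted p = 0.230). Col4a2 was -1.95, -1.66, -2.06, -1.64 and -1.96 in adenoma and -2.75, -1.92, -2.95, -2.49 and -2.87 in metastases. Only metastases 2 reached the adenoma range, and the difference of -0.74 (SE 0.27, adjusted p = 0.0456) was below the log2 change required for a call. Col4a5, a chain of epithelial basement membranes, had a mean of 0.30 for adenoma, 0.31 for carcinoma, -0.44 for disseminated cells and 0.13 for metastases. Col4a6, the partner of Col4a5 in that network, had the widest scatter, from -1.98 to 3.47 in disseminated cells, where the difference from carcinoma was -1.90 (SE 0.72, adjusted p = 0.0566).

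FACIT collagens held both the largest rise and some of the largest falls. Type IX collagen, known from cartilage, is built of the chains Col9a1, Col9a2 and Col9a3, and these stood above the reference in nearly all samples. Col9a2 (probe at chr4:120495071-120495130, mm7) was 4.17, 4.66, 5.98, 4.40 and 3.91 in adenoma, between 3.75 and 5.06 in carcinoma (median 4.46), between 1.41 and 4.21 in disseminated cells (median 2.01) and 4.19, 4.51, 2.41, 2.22 and 3.83 in metastases. Of the disseminated samples 4 lay under all primary tumors, with disseminated 4 and 6 (3.87 and 4.21) among or near them. Col9a2 fell by 2.11 on the log2 scale (SE 0.55, 4.33-fold, adjusted p = 0.0106) against adenoma and by 1.92 (SE 0.52, 3.78-fold, adjusted p = 0.0103) against carcinoma. The former call was lost with Aquantile (log2 change -1.39, adjusted p = 0.0864) and with the unmoderated test (adjusted p = 0.0694). In linear terms its mean was 24.7 times the reference for adenoma, 21.5 for carcinoma, 5.70 for disseminated cells and 10.8 for metastases, and the metastases differed from no group by a call. The 250 bases before the RefSeq start of Col9a2, shown because the gene fell in disseminated cells against both stages of primary tumor, held GGGCGG on each strand, in capitals.
Col9a2, chr4:121039316-121039565, plus strand: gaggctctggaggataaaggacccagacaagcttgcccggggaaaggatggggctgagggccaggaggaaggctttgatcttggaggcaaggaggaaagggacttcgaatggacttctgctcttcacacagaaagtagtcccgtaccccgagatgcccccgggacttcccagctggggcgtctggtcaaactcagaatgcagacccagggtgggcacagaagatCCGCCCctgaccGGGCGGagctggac

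Col9a1 was 3.44, 4.40, 3.23, 3.85 and 3.07 in adenoma and from 0.32 to 3.90 in disseminated cells (median 1.17), and it fell by 1.76 on the log2 scale (SE 0.57, adjusted p = 0.0333). Disseminated 4 and 6, at 3.42 and 3.90, lay within the adenoma range. The Col9a1 call was lost without disseminated 1, 2, 3 or 5 or adenoma 2 or 4 (log2 change -1.70 to -1.46, adjusted p up to 0.0835), and with Aquantile the change was -0.61. It was lost too with median centring (adjusted p = 0.0592), the deposited ratios (0.139) and the unmoderated test (0.140). Within slides, both genes lay lower in disseminated cells on all 3 slides, with differences of -3.27 to -1.05 for Col9a2 and -3.07 to -0.98 for Col9a1. Col9a3 behaved differently: it was 1.97, 1.10, -0.23, 0.58 and 1.39 in adenoma and between 1.52 and 3.26 in carcinoma, and rose by 1.59 (SE 0.50, 3.0-fold, adjusted p = 0.0458). Carcinoma 6 alone lay within the adenoma range. That call was lost when any of 9 of the 11 samples was left out (all but carcinoma 6 and adenoma 1; adjusted p up to 0.138), and in 6 of 10 other settings (log2 change 1.47 to 1.82, adjusted p up to 0.103), the slide and the replicate number as a block among them (adjusted p = 0.0531 and 0.0784). Col9a3 fell in disseminated cells against carcinoma, by 1.58 (SE 0.48, adjusted p = 0.0200), where 5 of 6 disseminated samples (0.16 to 0.86) lay below all carcinomas and disseminated 6 was at 3.05. This call was lost with Aquantile (log2 change -1.46, adjusted p = 0.0832) and with the unmoderated test (adjusted p = 0.0504).

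Col14a1, a FACIT of mature connective tissue fibrils, was the only collagen gene called higher in cells from the lungs. Its probe (chr15:55583816-55583875, mm7) read 0.62, 0.86, -0.82, -0.11 and -0.08 in adenoma, between 0.43 and 4.30 in carcinoma (median 1.32), between 1.38 and 4.21 in disseminated cells (median 3.10) and 2.87, 1.92, 3.88, 5.36 and 1.28 in metastases. All 11 lung samples lay above the highest adenoma. The sample channel was well above background on 3 of 5 adenoma arrays, so the changes from adenoma are not exact values. Col14a1 rose by 2.94 on the log2 scale in disseminated cells (SE 0.71, 7.69-fold, adjusted p = 0.00738) and by 2.97 in metastases (SE 0.74, 7.83-fold, adjusted p = 0.00564). It was higher in disseminated cells on all 3 shared slides, by 1.95 to 4.10. Carcinoma 6, with its high macrophage markers, was also the highest carcinoma for Col14a1 at 4.30, and carcinoma against adenoma differed by 1.73 (SE 0.71, adjusted p = 0.120). The second Col14a1 probe was above background on only 1 of 11 and 0 of 10 arrays of these comparisons, and with both averaged the rises were 1.56 and 1.49.

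Beside these rises, markers of macrophages, endothelium and lung epithelium were higher in the lung samples. In disseminated cells against adenoma 9 of 9 macrophage markers (Chil3 the most, by 8.68), 7 of 9 endothelial, 4 of 7 lung epithelial and 4 of 10 fibroblast markers rose (all genes, 4.64%), the fibroblast ones being S100a4, Vim, Pi16 and Cd34. In metastases against adenoma 8 of 9 macrophage, 2 of 9 endothelial and 4 of 7 lung epithelial markers rose and 0 of 10 fibroblast markers did (all genes, 6.08%), with Pdgfra and Thy1 lower. The macrophage mean by sample was 2.55, 0.10, 3.53, 4.34 and 0.81 in the metastases, and metastases 4 was the highest for both these markers and Col14a1, whereas metastases 2, the lowest for the markers, had Col14a1 at 1.92. The GFP+ sort is meant to remove cells of the host, which carries no GFP, but not other cells of the donor tissue. The part of either in the values of Col14a1 was not tested.

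Col16a1, a FACIT of basement membrane zones and fibrils, fell in both lung groups against adenoma. It was tightly grouped in adenoma (-1.15, -0.86, -0.71, -0.68 and -1.22), and lay between -2.85 and -1.39 in carcinoma, between -4.57 and -1.08 in disseminated cells (median -3.04) and at -2.19, -1.22, -3.15, -4.42 and -2.48 in metastases. Metastases 2 stood just under the lowest adenoma, and disseminated 4 lay within the adenoma range. The fall was 1.97 on the log2 scale in disseminated cells (SE 0.56, 3.93-fold, adjusted p = 0.0170) and 1.77 in metastases (SE 0.58, 3.41-fold, adjusted p = 0.0275), the latter lost without metastases 3 or 4 or adenoma 3 or 4 (adjusted p up to 0.0896). It was also lost with Aquantile (adjusted p = 0.0893) and the deposited ratios (0.106), and the call in disseminated cells with the unmoderated test (0.0754). Col20a1 was lower by less than the log2 change of a call (-0.82 in metastases against adenoma, adjusted p = 0.00609).

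The class of networks and anchoring fibrils had most of its calls against carcinoma, with 2 of 4 genes lower in disseminated cells and 3 of 4 in metastases (all genes, 6.12% and 5.34%). Col7a1, the chain of anchoring fibrils (probe at chr9:108695073-108695132, mm7), lay between 0.74 and 2.26 in carcinoma (median 1.51), between -1.86 and 0.58 in disseminated cells (median 0.04) and at -0.17, 0.19, 0.34, -1.66 and 1.19 in metastases. Every disseminated sample lay below every carcinoma, and of the metastases only sample 5 reached the carcinoma range. Col7a1 fell by 1.84 on the log2 scale (SE 0.44, 3.59-fold, adjusted p = 0.00455) in disseminated cells and by 1.60 (SE 0.46, 3.03-fold, adjusted p = 0.0174) in metastases. The latter was lost without metastases 4 (log2 change -1.19, adjusted p = 0.0565), and within the 3 shared slides the difference ran from -2.65 to -0.80. Adenomas were at 0.03, 0.90, 0.47, 0.94 and 0.80, and neither lung group differed from them by a call (adjusted p = 0.177 and 0.340). The window before the RefSeq start of Col7a1, shown as that of a called gene whose disseminated samples all lay below carcinoma, held CCAAT and GGGCGG, in capitals on either strand.
Col7a1, chr9:108953336-108953585, plus strand: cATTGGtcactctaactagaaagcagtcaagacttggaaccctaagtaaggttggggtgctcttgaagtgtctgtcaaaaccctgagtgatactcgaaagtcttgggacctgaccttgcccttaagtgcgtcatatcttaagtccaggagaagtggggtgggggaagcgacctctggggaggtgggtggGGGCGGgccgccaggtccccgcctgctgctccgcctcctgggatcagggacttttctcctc

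Type VIII collagen, a short-chain collagen of endothelial and vascular matrix, has the chains Col8a1 and Col8a2. Col8a2 lay between -0.30 and 1.60 in carcinoma (median 1.0), between -1.59 and -0.29 in disseminated cells (median -0.68) and at 0.06, -0.62, -1.34, -1.23 and -0.98 in metastases. The groups overlapped only at carcinomas 4 and 5 (-0.30 and -0.22), and the sample channel was well above background on 20 of 22 arrays. It fell by 1.56 in both comparisons (2.94-fold with SE 0.34 and adjusted p = 0.00272 in disseminated cells, 2.96-fold with SE 0.36 and adjusted p = 0.00464 in metastases). With the scanner software's processed signals the Col8a2 changes were larger, at -2.86 and -2.76. Col8a1 lay far below the reference. It was at -4.55, -3.72, -3.65, -3.81 and -4.51 in adenoma, between -4.60 and -3.48 in carcinoma and at -5.47, -5.15, -5.66, -5.64 and -5.42 in metastases. All 5 metastases lay below every primary tumor, and Col8a1 fell by 1.41 against adenoma (SE 0.40, adjusted p = 0.0119) and by 1.36 against carcinoma (SE 0.38, adjusted p = 0.0155). A second Col8a1 probe changed by -1.20 and -0.73, the latter under the log2 change of a call, and with the deposited ratios the change against adenoma was -0.87. Disseminated cells overlapped both, from -6.11 to -3.36. Within slides, Col8a1 and Col8a2 were lower in metastases than in carcinoma on all 3.

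In the remaining classes few genes were called. Some changes under the log2 change of a call had low limma adjusted p. The lowest of the transmembrane class was 0.00162 in metastases and 0.00259 in disseminated cells against carcinoma, both for genes that lay lower. The lowest of the beaded filament class was 0.00462 in disseminated cells against adenoma. The first and the last were the lowest of the 40 genes in their comparisons. Col6a1, a chain of type VI microfibrils, was -3.12, -2.82, -2.94, -2.51 and -3.61 in adenoma and -4.09, -3.37, -4.46, -4.40 and -4.15 in metastases, overlapping only at metastases 2. It fell by 1.09 (SE 0.30, adjusted p = 0.0107) and slipped to or under the required log2 change without metastases 3 (-1.0) or adenoma 4 (-0.97) and with the deposited ratios (-0.80). Col6a3, the large chain of the same trimer, showed no call, and its metastases formed a high pair (-1.58 and -1.94) and a low set (-4.34, -4.38 and -3.74). Col18a1, the multiplexin from which endostatin is released, lay between -2.08 and -0.30 in carcinoma and at -2.33, -2.56, -3.33, -4.18 and -1.45 in metastases, and fell by 1.43 (SE 0.51, adjusted p = 0.0479). All but metastases 5 lay below the carcinomas, yet the call was lost when any of 9 of the 11 samples was left out (all but carcinoma 6 and metastases 5; adjusted p up to 0.145), and with Aquantile, the deposited ratios or the unmoderated test (adjusted p up to 0.0997). Col15a1, the other multiplexin, differed by -0.88 in metastases against adenoma (adjusted p = 0.128). Col17a1, the hemidesmosomal collagen, had means of 2.95, 3.07, 1.65 and 2.15 in adenoma, carcinoma, disseminated cells and metastases, and its difference of -1.42 in disseminated cells against carcinoma (SE 0.59, adjusted p = 0.0796) was not called.

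Set side by side, the fibrillar class had a lower median change than the basement membrane class in metastases against adenoma. The median log2 change against adenoma over the 11 fibrillar genes was 0.06 for carcinoma, -0.85 for disseminated cells and -1.41 for metastases, and over the 6 basement membrane genes 0.03, -0.10 and -0.46. Of the fibrillar genes 4 fell in metastases against adenoma and 9 lay lower, and of the basement membrane genes 0 fell and 5 lay lower, where 8.51% of all genes fell and 47.9% lay lower. Against carcinoma in metastases the medians were close, at -0.60 and -0.56, and all 6 basement membrane genes lay lower. The FACIT median was -0.12 in metastases against adenoma and -0.53 in disseminated cells against carcinoma. Networks and anchoring fibrils had medians of 0.50, -0.72 and -0.74 against adenoma and -1.06 and -1.46 against carcinoma in disseminated cells and metastases. Beaded filament, multiplexin and transmembrane genes had medians of -0.71, -0.95 and -0.19 in metastases against adenoma. No test was made over a class, and 2 to 11 genes make up each median.

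By array, the mean log2 ratio of the fibrillar class was -1.49 ± 0.45 (SD, n = 5) for adenoma, -1.81 ± 0.53 (n = 6) for carcinoma, -2.15 ± 0.64 (n = 6) for disseminated cells and -2.52 ± 0.66 (n = 5) for metastases. Each step between neighboring groups was within 1 SD. The basement membrane mean was -0.06 ± 0.13, 0.04 ± 0.27, -0.43 ± 0.52 and -0.58 ± 0.59 in the same order, with the spread widening from adenoma to the lung samples. In the class of networks and anchoring fibrils carcinomas and metastases did not overlap by array, since carcinomas lay between -0.88 and 0.06 and metastases between -2.09 and -1.30.

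**Figure D4:**
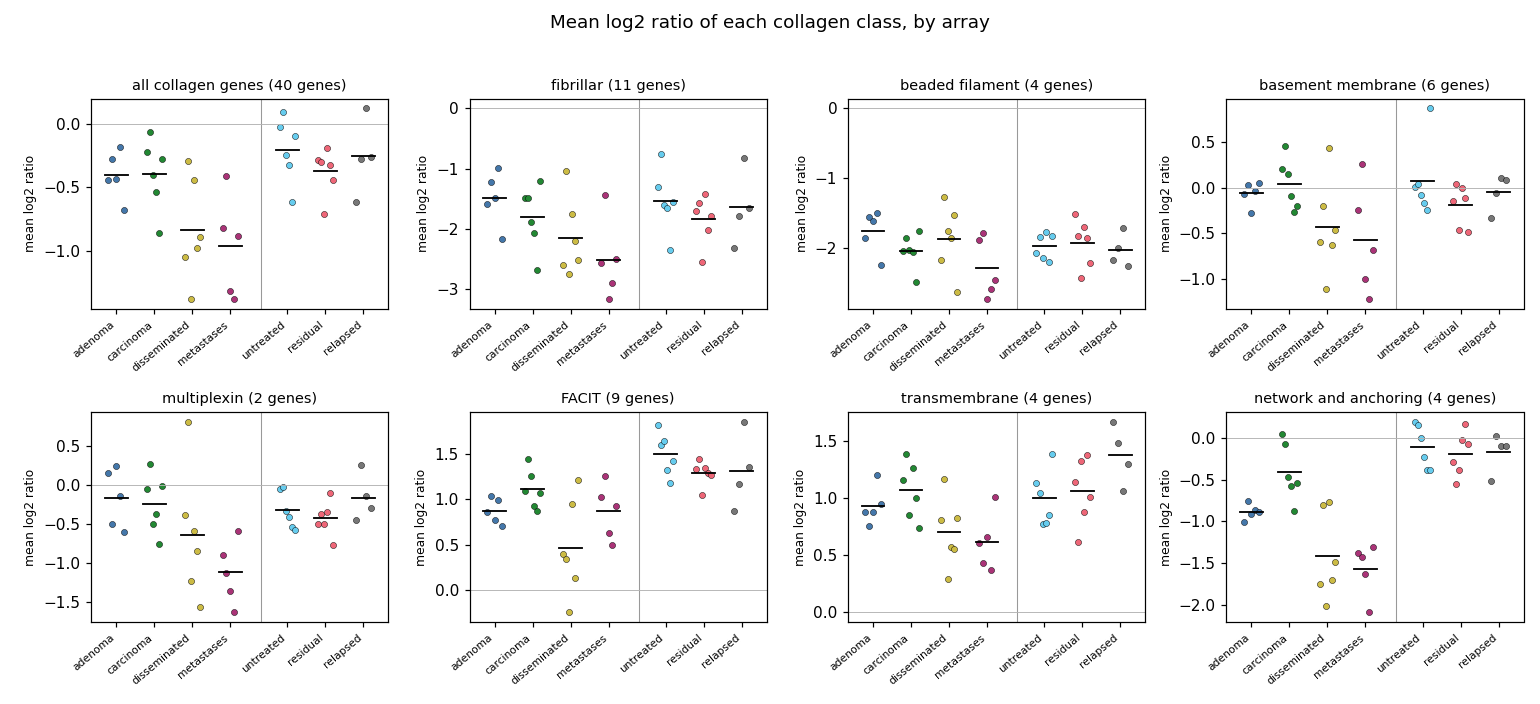
Mean log2 ratio of sample to reference RNA (y axis) over all 40 collagen genes and over each of the 7 classes, 1 point per array, for the 4 progression and the 3 chemotherapy groups (x axis), with a bar at each group mean. The fibrillar mean went from -1.49 in adenoma to -2.52 in metastases, while in the chemotherapy groups it lay at -1.54, -1.84 and -1.64.

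The mean over smooth muscle and pericyte markers was lower in metastases than in adenoma, as the fibrillar mean was. Whether these means moved together by array was not tested. The mean log2 ratio of 7 smooth muscle and pericyte markers was -1.32 ± 0.33 (n = 5) for adenoma, -1.86 ± 0.18 (n = 6) for carcinoma, -1.85 ± 0.37 (n = 6) for disseminated cells and -2.30 ± 0.18 (n = 5) for metastases. That of 6 basal epithelial markers was 1.73 ± 0.27, 1.93 ± 0.26, 1.25 ± 0.67 and 1.71 ± 0.55 in the same order. Of the 7 smooth muscle and pericyte markers, 1 fell in carcinoma and 2 in disseminated cells against adenoma (all genes, 2.14% and 5.84%). In disseminated cells the lowest change of the list was -1.81, in a marker other than Acta2. Acta2, smooth muscle actin, fell by 1.19 for carcinoma, 1.27 for disseminated cells and 2.46 for metastases against adenoma, and in metastases Cnn1, Tagln and Des fell too. In metastases against adenoma 4 of the 7 thus fell, where 8.51% of all genes did. The lower mean rested on these 4, since Myh11, Rgs5 and Cspg4 differed by 0.20, 0.18 and 0.26 and were not called. Of 10 fibroblast markers, Pdgfra fell in carcinoma against adenoma (by 1.06), where 2.14% of all genes fell. Pdgfra (by 1.32) and Thy1 (by 1.52) fell in metastases against adenoma, where 8.51% of all genes did. In metastases against adenoma the list was split, with 5 of the 10 lower and 5 higher, up to 1.64 for Vim (adjusted p = 0.106), and no marker was called higher. The fibroblast mean was -2.50 ± 0.32 (n = 5) for adenoma, -2.71 ± 0.80 (n = 6) for carcinoma, -1.53 ± 0.77 (n = 6) for disseminated cells and -2.71 ± 0.12 (n = 5) for metastases. On each progression array 5 to 7 of the 7 smooth muscle and pericyte and 9 or 10 of the 10 fibroblast markers were well above background. The mean of the luminal markers was 1.11, 0.28, -0.84, 1.90, -0.40 and 2.61 in the 6 disseminated samples, and disseminated 4 and 6, the highest, were also the highest for Col9a1 and Col9a2, while for Col9a3 disseminated 6 alone was high. The part of stromal or epithelial cell content in these collagen values was not tested.

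**Figure D5:**
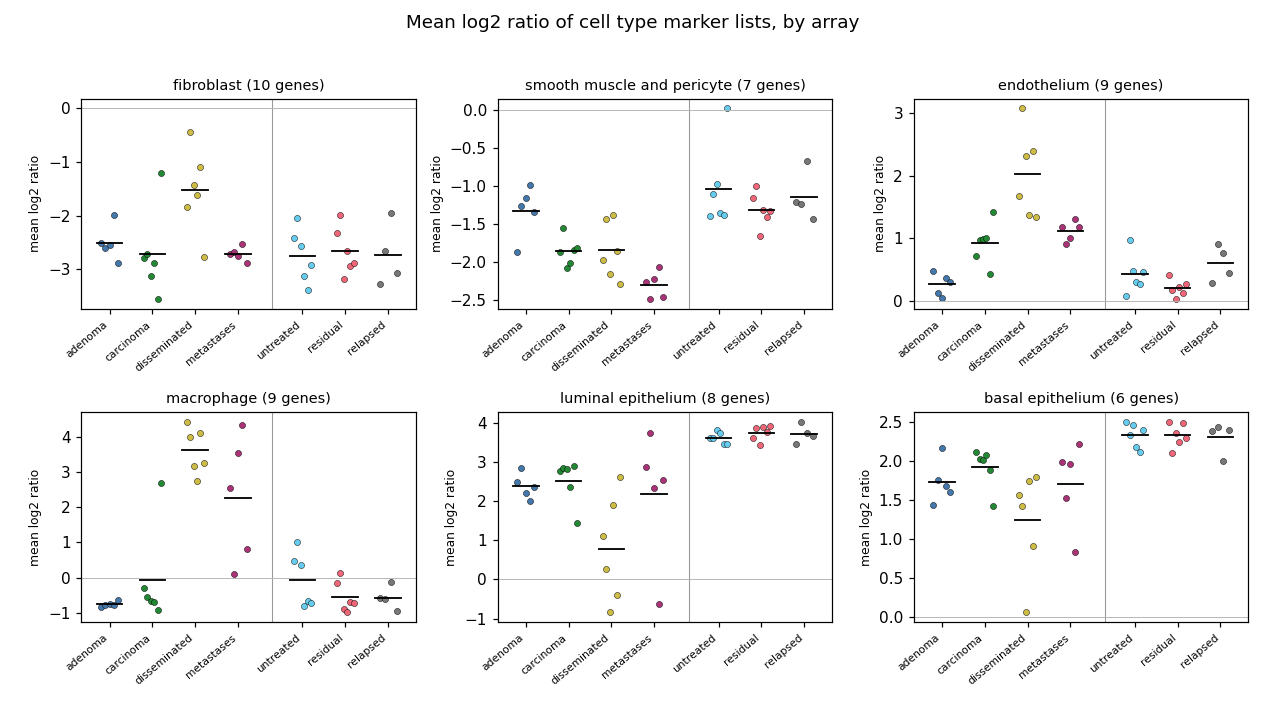
Mean log2 ratio of sample to reference RNA (y axis) over 6 lists of cell type markers, 1 point per array, by group (x axis), with a bar at each group mean. The macrophage mean was -0.75 in adenoma, 3.61 in disseminated cells and 2.27 in metastases, and the smooth muscle and pericyte mean went from -1.32 in adenoma to -2.30 in metastases.

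Among genes that make, receive or accompany collagen, a few were called. Of 31 measured genes of collagen processing, 2 rose and 1 fell in disseminated cells against adenoma (all genes, 4.64% and 5.84%), and 2 rose and 3 fell in metastases against adenoma (all genes, 6.08% and 8.51%). P4ha1, a catalytic subunit of the prolyl hydroxylase that stabilizes the triple helix, rose by 1.81 in disseminated cells (adjusted p = 0.00219) and by 1.06 in metastases, and P4hb, its beta subunit, by 2.74 in metastases (adjusted p = 0.00354). Adamts2, which removes the propeptide of fibrillar procollagens, fell by 1.77 in metastases (adjusted p = 0.00642), as did the crosslinking enzyme Loxl1 (by 1.24) and the collagen-binding Sparc (by 1.18). Against carcinoma, 2 rose and 2 fell in disseminated cells (all genes, 5.47% and 6.12%), and 1 rose and 0 fell in metastases (all genes, 4.74% and 5.34%). Apart from the 0, these shares were near those of all genes. The list median in metastases against adenoma was -0.04, beside 0.02 for all genes.

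Of 10 collagen receptors, Lair1, an inhibitory receptor of leukocytes, rose by 3.72 in disseminated cells against adenoma and by 4.14 against carcinoma, and fell by 3.13 in metastases against disseminated cells. Ddr1, the epithelial collagen receptor kinase, fell by 2.14 and Itgb1, the integrin beta 1 chain, rose by 1.44 in disseminated cells against carcinoma. In metastases against carcinoma Itgb1 rose by 1.51 and Itga11 fell by 1.62. Of 14 measured basement membrane partners, 0 rose and 1, 2 and 4 fell in disseminated cells against adenoma, metastases against adenoma and disseminated cells against carcinoma (all genes, 5.84%, 8.51% and 6.12% lower). They were laminin chains and agrin, led by Lama4 (-2.11 and -1.95 against adenoma), Lamb3 (-1.88) and Agrn (-1.78). Of 14 interstitial partners, Periostin (Postn), which binds type I collagen, fell the most, by 2.07 in disseminated cells and by 3.22 in metastases against adenoma (adjusted p = 5.19e-05), and by 1.63 and 2.78 against carcinoma. Its means were 1.44 ± 0.43 (n = 5) for adenoma, 1.0 ± 0.43 (n = 6) for carcinoma, -0.63 ± 1.13 (n = 6) for disseminated cells and -1.78 ± 0.63 (n = 5) for metastases. Fbn1 and Fbln1 also fell in metastases against adenoma, by 1.73 and 1.47, and the list median there was -0.86. In carcinoma against adenoma 0 genes of the 4 lists were called by limma, and 9 processing genes, 1 receptor, 3 basement membrane and 2 interstitial partners had an unadjusted p below 0.05, where 27.3% of all genes did.

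Adenoma and disseminated samples shared 1 set of slides and scan day, and carcinoma and metastases another. For carcinoma against adenoma, metastases against adenoma, disseminated cells against carcinoma and metastases against disseminated cells, slide set and group therefore cannot be told apart. With slide as a random block the calls of Col9a3 in carcinoma against adenoma, Col5a3 in disseminated cells against carcinoma and Col1a1 in metastases against disseminated cells were lost, so that 1, 4 and 0 collagen genes (in place of 2, 5 and 1) were called there. In the chemotherapy experiment 4 untreated arrays lay on a slide without other groups, and the groups of each comparison shared 1 slide. With slide as a fixed block, 1 of 28786 genes was called in residual against untreated tumors, in place of 29.

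No collagen gene was called in the chemotherapy experiment. Of 40 genes, 0 were called by limma in residual against untreated tumors (all genes, 0.0973% up and 0.00347% down), 0 in relapsed against untreated (0.00347% up and 0% down) and 0 in relapsed against residual (0.00347% up and 0.208% down), and the unmoderated equal-variance test, adjusted in the same way, also called 0 in each. At an unadjusted p below 0.05 there were 3, 5 and 1 collagen genes, beside 9.08%, 7.65% and 7.75% of all genes. Col1a1 lay between -5.29 and -3.50 (median -4.34) in untreated, between -5.64 and -4.07 (median -4.48) in residual and at -5.51, -4.44, -3.39 and -4.93 in relapsed tumors, and the groups overlapped fully. Col4a1 was between -2.89 and -1.94 in 5 untreated tumors and at 0.24 in untreated 6, between -3.19 and -2.35 in residual and at -2.96, -1.52, -1.66 and -2.11 in relapsed tumors. Untreated 6 was also the highest untreated sample for Col4a2 and Col4a5, and its mean of smooth muscle and pericyte markers was 0.01 where the other 5 lay between -1.40 and -0.98.

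The changes that came nearest were small. Residual tumors lay lower than untreated ones in Col13a1 (-0.38), Col15a1 (-0.39) and Col4a5 (-0.34), the 3 genes with an unadjusted p below 0.05, and the lowest adjusted p of the 40 was 0.393. Relapsed tumors lay higher than untreated in Col18a1 (0.68) and Col22a1 (0.25) and lower in Col15a1 (-0.36), Col4a5 (-0.34) and Col9a3 (-0.52), and the lowest adjusted p was 0.553. For Col18a1, relapsed 2 stood at 0.27 and the other relapsed tumors between -0.88 and -0.86. Relapsed and residual tumors differed in Col13a1, a transmembrane collagen of focal adhesions, by 0.60 (SE 0.16, limma adjusted p = 0.190). Its means were 0.44 ± 0.27 (n = 4) and -0.17 ± 0.16 (n = 6). The Col13a1 sample channel was above background in 0 of 6 residual tumors, so its differences from that group are not exact values. The largest difference of all was in Col17a1, with means of 3.58 ± 0.42 (n = 6) in untreated, 4.24 ± 1.15 (n = 6) in residual and 4.52 ± 0.92 (n = 4) in relapsed tumors. Relapsed against untreated differed by 0.94 (adjusted p = 0.735), and the groups overlapped, with untreated tumors between 3.12 and 4.20 and relapsed tumors at 5.53, 4.61, 3.28 and 4.65.

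By class, all 11 fibrillar genes were below untreated tumors in the residual group (median -0.20), and all 11 were above the residual group in relapsed tumors (median 0.11). Both comparisons use the residual samples. Of all 40 collagen genes, 29 were lower in residual than in untreated tumors and 32 higher in relapsed than in residual tumors. Of all genes on the arrays, 51.1% and 45.3% were lower in these comparisons. In each, 0 fibrillar genes had an unadjusted p below 0.05 in limma. The basement membrane medians were -0.30 and 0.05, and the medians of all genes were near 0 (-0.00 and 0.02). The fibrillar mean by array was -1.54 ± 0.52 (n = 6), -1.84 ± 0.41 (n = 6) and -1.64 ± 0.62 (n = 4) in untreated, residual and relapsed tumors, differences within 1 SD. The basement membrane mean was 0.07 ± 0.40, -0.19 ± 0.23 and -0.05 ± 0.20, and the untreated value included 0.86 in untreated 6 against -0.24 to 0.04 in the others. Of the lists of processing genes, receptors and matrix partners, 0 genes were called by limma in any chemotherapy comparison. At an unadjusted p below 0.05, 4 of the 31 processing genes were lower in residual than in untreated tumors and 4 were higher in relapsed than in residual tumors, where 9.08% and 7.75% of all genes had such a p in either direction.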

How the data were processed

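The authors deposited scanner intensity values per spot, from Feature Extraction 10.7 per the file headers, plus log2 ratios in a matrix, made with normexp and loess. Ratios were computed here from the intensities in R 4.3.3 with limma 3.58.1 and statmod 1.5.0 (normexp with an offset of 50, loess within arrays, quantile between arrays, per experiment), and the matrix served as an alternative. Outlier spots (0.435%) were left out, repeat spots averaged, and a gene was read from its brightest probe by mean signal. Tumor RNA was amplified in 2 rounds for progression and 1 for chemotherapy, so the experiments were fitted separately, each in 1 limma model of all its groups without covariates, with Benjamini-Hochberg adjustment over 28786 genes. Names came from a RefSeq table for 22951 of 41174 probes, 57 of 78 collagen probes among them, and otherwise from the arrays, whose build is mm7. The script was checked on simulated data. Members, classes, lists and markers were chosen with earlier results of these data known. Named were the 3 largest called rises and falls of each comparison and the anchor genes of the classes (Col1a1, Col1a2, Col3a1, Col5a2, Col4a1, Col4a2, Col4a5, Col6a1, Col6a3, Col15a1, Col18a1, Col17a1 and Col7a1), and the 3 largest called changes of the lists. Other genes named, such as Col4a6, Col5a1, Col8a1, Col13a1, Col20a1 and Col22a1, were chosen after their values were seen. Replicate numbers were not used to pair the samples in this model.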

Additional observations from a re-analysis of the deposited data

Results flagged for a closer look

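In 12 of 203 groups of values looked at, the highest or lowest sample stood far from the rest by Dixon's test, and chance gives about 1 in 20 groups, so such a number can be had without any cause. Untreated 6 gave 4 of them: the mean of the basement membrane class was 0.86 (others -0.24 to 0.04), Col4a1 was 0.24 (others -2.89 to -1.94), Col4a2 was 0.00913 (others -1.95 to -1.66) and Col4a5 was 1.58 (others 1.05 to 1.17). Its smooth muscle and pericyte markers had a mean of 0.01, where the other untreated tumors lay between -1.40 and -0.98, and the part of such cells in the type IV values was not tested. In the other chemotherapy groups, Col15a1 in untreated 2 was 1.29 (others 0.40 to 0.67), Col18a1 in relapsed 2 was 0.27 (others -0.88 to -0.86) and Col6a3 in relapsed 3 was -2.45 (others -3.80 to -3.63). Residual 3 was low in Col8a2, at 1.13 (others 1.80 to 2.15), and in Col9a3, at 2.71 (others 3.17 to 3.29). In progression, Col5a3 was -2.44 in adenoma 5 (others -0.73 to -0.23) and 0.56 in disseminated 2 (others -2.94 to -2.21), and Col9a3 was 3.05 in disseminated 6 (others 0.16 to 0.86).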

How the results depend on the processing

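None of the 27 collagen calls changed sign under any alternative. The median change of the 40 genes crossed 0 in carcinoma against adenoma (0.04) with a normexp offset of 0 (-0.00073) and without carcinoma 2 (-0.03), and in relapsed against untreated tumors (-0.06) with slide as a fixed block (0.02), without untreated 2 (0.02) and without relapsed 1 (0.04). Over the counts of called collagen genes, 79 of 95 alternative counts were within 1.5 times the reported one. In carcinoma against adenoma the count of 2 became 1 with median centring, Aquantile, the deposited log2 ratios, slide as a random block or the replicate number as a block. In disseminated cells against adenoma the count of 5 became 8 with the scanner software's processed signals, 3 with the deposited ratios and 1 with the unmoderated equal-variance test. In disseminated cells against carcinoma the count of 5 became 9 with processed signals, 3 with Aquantile and 3 with that test. The single call of metastases against disseminated cells became 2 with processed signals and 0 with Aquantile, slide as a random block, averaged probes per gene or that test. The cause was not tested. With 1 sample left out, counts ranged from 1 to 2, 3 to 7 and 5 to 10 for carcinoma, disseminated cells and metastases against adenoma, from 4 to 9 and 2 to 6 for disseminated cells and metastases against carcinoma, from 0 to 4 for metastases against disseminated cells, and from 0 to 0 in each chemotherapy comparison. Deviations from the group mean of samples with the same replicate number had correlations from -0.41 to 0.42. In relapsed against untreated tumors 3 of 4 such pairs were over 0.1, and at most 2 in any other comparison. The replicate block moved no other count by over 1.5 times. Of these calls, 243 of 281 values held under the alternatives and 226 of 294 with a sample left out. Col1a1 (carcinoma and metastases against adenoma), Col14a1, Col1a2 and Col8a2 held in all that were run. So did Col7a1 and Col9a2 (both disseminated cells against carcinoma) and Col8a1 (metastases against carcinoma). A fixed slide block could be fitted for disseminated cells against adenoma, metastases against carcinoma and the chemotherapy groups, with no count moved by over 1.5 times. Genes with dim signal carry only a bound, and 14 of 40 genes in progression and 11 in chemotherapy were not above background on every array.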
